A study of Homo sapiens with 4 samples.

Results

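The genes described are 10 components of the cytosolic translation machinery, taken by Ensembl number from the 57820 annotated features of the footprint count tables. They comprise the elongation factors EEF1A1, EEF1B2, EEF1D, EEF1G and EEF2, the initiation factors EIF4A1, EIF4B and EIF4G1, the poly(A)-binding protein PABPC1 and the translational inhibitor EIF4EBP1. Ribosome-protected fragments had been sequenced from BJ-Ras-ER cells, which are BJ fibroblasts with hTERT and an H-Ras oncogene switched on by 4-OHT, and both transgenes were present in all 4 libraries. Proliferating cells without 4-OHT and cells in oncogene-induced senescence (OIS, 100 nM 4-OHT for 12 days) received either DMSO or 10 μM GC7 for 18 h, with 1 library for each of the 4 conditions. GC7 inhibits deoxyhypusine synthase, which modifies the elongation factor eIF5A. The conditions follow the sample titles. For 2 libraries, proliferating GC7 and OIS DMSO, the separate treatment entry contradicts the title, and every result below that uses either library, the comparison of the states in DMSO included, rests on the titles being right. The labelled cell type was not checked against marker genes, because the tables give Ensembl numbers without names and the members were named by the list that defines them.

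In translation initiation, the eIF4F complex binds the capped 5′ end of the mRNA. EIF4G1 is its scaffold, EIF4A1 its RNA helicase and EIF4B a cofactor of the helicase, while PABPC1 holds the poly(A) tail and contacts EIF4G1. EIF4EBP1 keeps the cap-binding protein from joining the scaffold until mTORC1 phosphorylates it. During elongation, EEF1A1 delivers aminoacyl-tRNAs to the ribosome, the exchange complex of EEF1B2, EEF1D and EEF1G recharges it with GTP, and EEF2 moves the ribosome along by one codon. Many mRNAs of this machinery start with a 5′ terminal oligopyrimidine (TOP) tract, a C followed by a run of pyrimidines, through which mTORC1 and LARP1 control their translation.

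RefSeq promoter sequences (assembly GRCh38.p14) were matched by symbol for 7 of the 10 members. None was available for EEF1D, PABPC1 and EIF4EBP1, so whether they have a tract is not known here. In the others, a C followed by at least 4 pyrimidines was searched on the strand that reads as the mRNA. These 7 members have 10 listed transcription starts, with 1 promoter each. Such a tract began exactly at 4 of the 10 starts, 1 each of EEF1A1, EEF1B2, EEF2 and EIF4B, and in 4.07% of the 35116 promoters in the table. For EEF1B2 it was the second of 2 listed starts, and the first had no tract. With a distance of up to 3 bases from the start allowed, 5 of the 10 starts had one, the second of the 3 listed for EIF4G1 being added, and the share over all promoters was 13.0%. A match describes the letters of the window only, and neither the start used in these cells nor translation through the tract was measured. The 25 bases before and 25 bases from the start are shown for the 4 members with the tract exactly at a start and for the first start of EIF4G1, with the tract in capitals. Not printed are the first start of EEF1B2, without a tract, and the second of EIF4G1, with a tract from 3 bases before it. The printed starts are thus no contrast of members with and without a tract.
EEF1A1 (chr6:73521008-73521057, minus strand): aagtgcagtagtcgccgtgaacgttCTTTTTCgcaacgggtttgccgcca
EEF1B2 (second listed start, chr2:206159870-206159919, plus strand): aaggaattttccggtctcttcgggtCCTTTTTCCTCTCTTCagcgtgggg
EEF2 (chr19:3985439-3985488, minus strand): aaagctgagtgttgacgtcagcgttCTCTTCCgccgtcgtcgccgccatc
EIF4B (chr12:53006431-53006480, plus strand): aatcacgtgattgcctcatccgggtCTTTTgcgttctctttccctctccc
EIF4G1 (first listed start, chr3:184314581-184314630, plus strand): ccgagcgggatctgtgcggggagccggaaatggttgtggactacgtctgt

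The tract was 16 bases long in EEF1B2, 7 in EEF1A1 and in EEF2, and 5 in EIF4B. The promoters of EEF1G and EIF4A1, also in the table, held no such tract within 3 bases of their starts.

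The total number of counts was 4323662 (DMSO) and 6553835 (GC7) for proliferating cells, and 3039026 (DMSO) and 4860980 (GC7) for OIS cells. The share of counts on the mitochondrial genome was 2.89% and 12.2% in the DMSO libraries of proliferating and OIS cells, against 0.0281% and 0.141% with GC7. Scaling therefore used nuclear features only, and the part of the lower mitochondrial share in the results below was not tested. Levels are given as CPM, the counts scaled by library size with TMM, and between genes only per kilobase of exonic sequence (RPKM). The 10 members together held 0.227% (DMSO) and 0.162% (GC7) of the nuclear counts in proliferating cells, and 0.252% (DMSO) and 0.208% (GC7) in OIS cells. Counting intervals are 95% and exact, they cover counting error only, and no condition has a replicate.

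Of the 10 members, 8 reached the limit of 40 counts over the 4 libraries and were among the 11128 nuclear features tested. EEF1G (ENSG00000254772, hg19 chr11:62327073-62342401) had 0, 1, 1 and 0 counts in proliferating DMSO, proliferating GC7, OIS DMSO and OIS GC7. Its annotation has 2969 exonic bases, of which 2946 (99.2%) also belong to the exons of ENSG00000255508 on the same strand. EIF4A1 (ENSG00000161960, chr17:7476024-7482323) had 0, 3, 1 and 4 counts, and 48.6% of its 5316 exonic bases were shared with 4 other features. The file headers show featureCounts run without the option that keeps reads overlapping more than one gene, and by default the program leaves such reads out. Among all nuclear features, 1755 (3.04%) shared at least 95% of their exonic bases with another gene. Of these, 1742 had no count in any library and the highest had 25 counts over the 4 libraries. The few counts of EEF1G are therefore no measure of its footprints. Features that shared 40% to 60% of their exonic bases, as EIF4A1 does, had no count in 722 of 1151 cases, but 176 of them were tested and the highest had 15437 counts over the 4 libraries. Of all 57783 nuclear features, only 22700 had at least 1 count, so empty features were common with or without such sharing. Exonic bases include untranslated and alternative exons, and the share within the coding exons of EIF4A1 was not computed. Whether shared exons or reads left out for aligning to several places account for its few counts was not tested. No ratio is given for either gene. 3 counts, about the 1-sided 95% limit for a count of 0, corresponded to 0.651, 0.41, 1.34 and 0.647 CPM in the 4 libraries in the order above. The exact 95% counting intervals of EEF1G, with 0 counts, reached 0.8 CPM in proliferating DMSO and 0.796 CPM in OIS GC7.

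**Figure D1:**
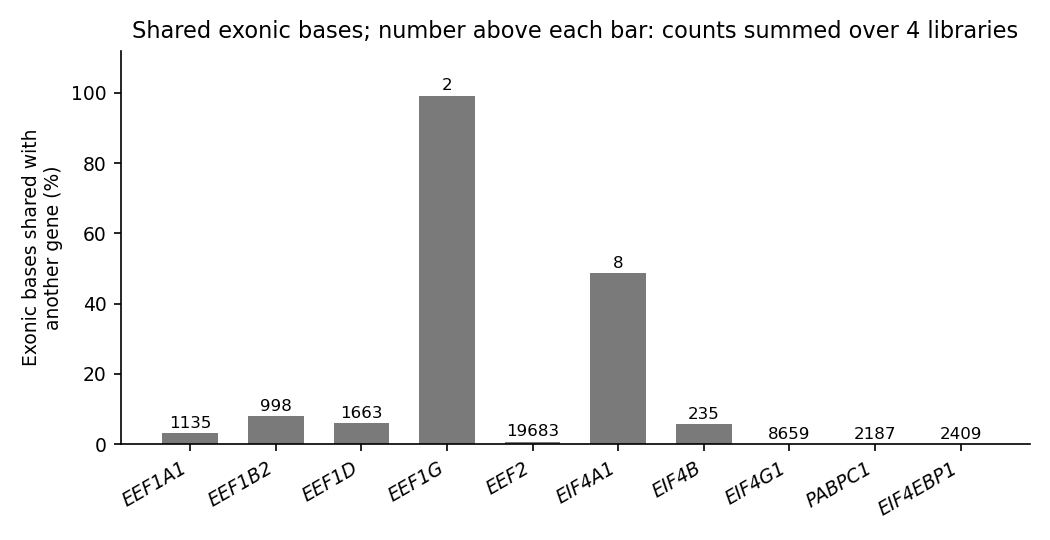
Percentage of each member's exonic bases (y axis, bars) that lie in exons of another annotated gene regardless of strand, with the counts summed over the 4 libraries above each bar. EEF1G stands at 99.2% with 2 counts and EIF4A1 at 48.6% with 8 counts, while the other 8 members lie between 0.0% and 7.89% with 235 to 19683 counts.

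The other members shared few exonic bases. EIF4G1 (ENSG00000114867, chr3:184032283-184053146), PABPC1 (ENSG00000070756, chr8:101698044-101735037) and EIF4EBP1 (ENSG00000187840, chr8:37887859-37917883) shared none. EEF2 (ENSG00000167658, chr19:3976054-3985467) shared 0.695% and EEF1A1 (ENSG00000156508, chr6:74225473-74233520) 3.03%. EIF4B (ENSG00000063046, chr12:53399942-53435993), EEF1D (ENSG00000104529, chr8:144661867-144681711) and EEF1B2 (ENSG00000114942, chr2:207024309-207027652) shared 5.79%, 5.94% and 7.89%. Reads that align to several places are also left out by default. The RefSeq table lists 50 genes named as pseudogenes of EEF1A1, 13 each for PABPC1 and EIF4A1, 9 for EIF4B, 8 each for EEF1B2, EEF1D and EEF1G, 2 for EIF4EBP1, and 0 for EEF2 and EIF4G1. Levels of the members with such copies, EEF1A1 in the first place, are thus uncertain, and how many reads were left out cannot be read from counts per gene.

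EEF2 had the highest level per exonic length in 3 of the 4 libraries, with 292 RPKM in proliferating DMSO cells and 451 (DMSO) and 312 (GC7) in OIS cells. In proliferating GC7 cells it was second, with 148 RPKM, to EIF4EBP1 with 231. EIF4G1 was second in both OIS libraries (97.3 RPKM in DMSO, 68.5 with GC7) and the third in both proliferating libraries (43 RPKM in each). EIF4EBP1 moved most in the order, from second in proliferating DMSO (57.8 RPKM) to first in proliferating GC7, then rank 4 in OIS DMSO (23.7) and rank 3 in OIS GC7 (50.9). EIF4B was the lowest of the 8 in each library, between 1.6 and 2.58 RPKM. EEF1A1, in most cells among the most abundant of all proteins, had only 6.35 to 17.8 RPKM, at percentiles 54.1 to 78.7 of all tested features, whereas EEF2 lay at percentiles 97.5 to 99.1. Neighbours whose counting intervals overlapped were PABPC1 and EEF1B2 in proliferating DMSO (36.2 and 30.5 RPKM), EIF4EBP1 and EEF1B2 in OIS DMSO (23.7 and 21) and EEF1B2 and PABPC1 in OIS GC7 (24.6 and 21.4). Exonic length includes untranslated and alternative exons, so a gene with many of them, such as EEF1D with 9390 exonic bases, is placed low on this scale.

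**Figure D2:**
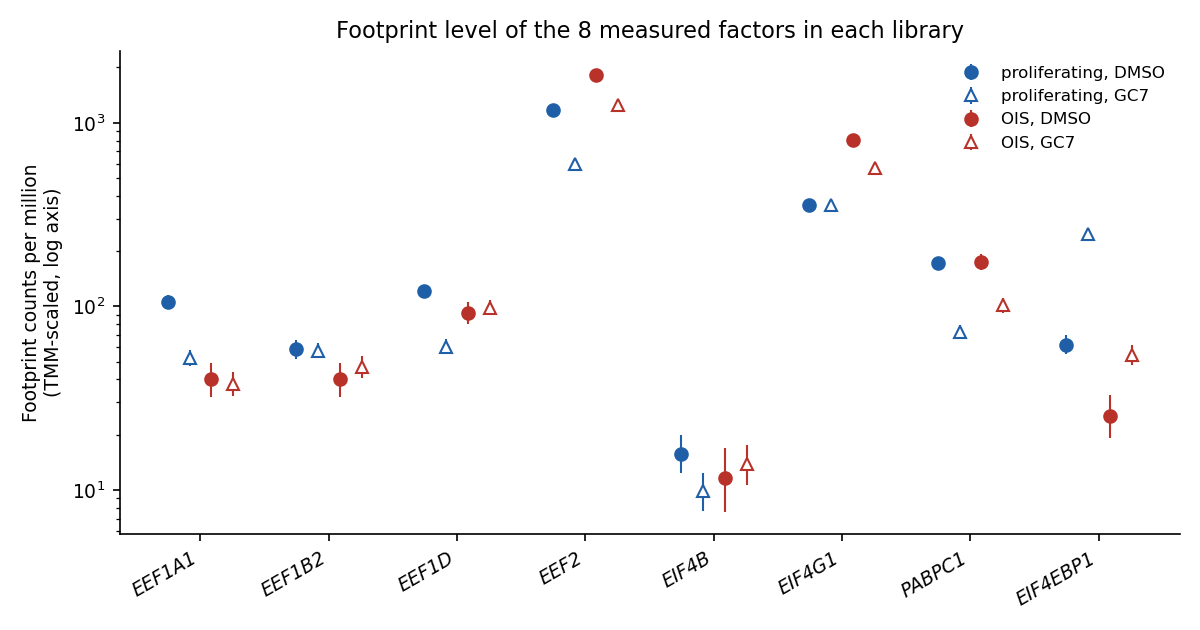
Footprint levels in CPM after TMM scaling (y axis, log scale) of the 8 measured members, with 1 point per library and its 95% counting interval, as filled circles (DMSO) or open triangles (GC7) in blue (proliferating) or red (OIS). EIF4EBP1 runs from 25.4 CPM in OIS DMSO to 248 in proliferating GC7, and EEF2 from 597 in proliferating GC7 to 1816 in OIS DMSO.

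A pair of libraries was compared by the log2 ratio of scaled counts, and the call higher or lower required a ratio of at least 2-fold and a counting interval that excluded equal levels. A difference in footprints can come from the amount of mRNA or from the ribosomes on it, and a change in all cells cannot be told apart from one in a share of the cells. Scaled counts are relative to the rest of the library, so a change in the total footprints per cell cannot be seen in them. GC7 was compared with DMSO within each state to describe the footprints of the members under the inhibitor. Hypusination was not measured in these libraries. The paper reports that hypusination was more sensitive to GC7 in OIS than in proliferating cells. Of the comparisons below, the GC7 comparison of a state and the comparison of the states in DMSO or with GC7 share a library, so their values are not independent.

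In proliferating cells, footprints of 5 of the 8 measured members were lower with GC7 beyond counting error, as were those of 19.4% of all tested features. Those of EIF4EBP1 were about 4-fold higher, and those of EEF1B2 and EIF4G1 were equal within counting error. The median log2 ratio of the 8 members was -0.83, beside 0.02 over all tested features, and the middle 50% of all features lay between -0.24 and 0.29. By the 2-fold rule 1 member was higher, where 3.42% of all features were, and 2 members were lower, where 2.06% of all features were. PABPC1 and EEF1A1 were the 2 lower members. EEF1D and EEF2 lay just inside the limit.

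Among the elongation factors, EEF1A1 stood at 106 CPM in proliferating DMSO and 52.2 CPM in proliferating GC7 cells, a log2 ratio of -1.02 (interval -1.22 to -0.82). EEF1D went from 121 to 60.4 CPM, a log2 ratio of -1.0 (-1.18 to -0.82). EEF2 went from 1176 to 597 CPM, a log2 ratio of -0.98 (-1.04 to -0.92). These 3 log2 ratios differed by less than their counting intervals and lay between percentiles 2.08 and 2.44 of all features. EEF1B2, which works in the same complex as EEF1D, was at 58.3 CPM with DMSO and 57.5 CPM with GC7 (-0.02, interval -0.24 to 0.21).

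Among the initiation factors in proliferating cells, EIF4G1 was at 355 CPM in both libraries (log2 ratio 0.00, interval -0.09 to 0.09). EIF4B was at 15.8 CPM with DMSO and 9.84 with GC7 (-0.67, interval -1.18 to -0.20), from 73 and 72 counts. Of the 4 members with a tract exactly at a listed start, EEF1A1, EEF2 and EIF4B were lower beyond counting error and EEF1B2 was not. In OIS cells EEF2 alone of these 4 was lower beyond counting error. Over all tested features, 19.4% were lower beyond counting error in proliferating cells and 18% in OIS cells. EEF1D and PABPC1, also lower in proliferating cells, had no promoter to search, and a relation of the ratios to the tract was not tested. PABPC1 went from 172 to 72.5 CPM, a log2 ratio of -1.24 (-1.41 to -1.08), which put it at percentile 1.06 of all features. EIF4EBP1, the translational inhibitor and a known target gene of the stress-response factor ATF4, was at 62 CPM with DMSO and 248 CPM with GC7 (286 and 1813 counts). Its log2 ratio of 1.99 (1.82 to 2.18), or 3.98-fold, was at percentile 99.4. With total-count or upper quartile scaling, or with features of at least 400 or at least 1 count, the log2 ratio of EEF1A1 was -0.94 to -1.0 and it no longer met the 2-fold limit, while PABPC1 and EIF4EBP1 met it under every scaling, count limit and prior count tried.

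In OIS cells, GC7 left the members spread around equal levels, with EIF4EBP1 again the highest ratio. The median log2 ratio was 0.00, beside 0.01 over all features. By the 2-fold rule 1 member was higher (3.57% of all features) and 0 were lower (2.79% of all features). EIF4EBP1 was at 25.4 CPM in OIS DMSO and 54.6 CPM in OIS GC7 cells (57 and 253 counts), a log2 ratio of 1.10 (0.68 to 1.54) or 2.14-fold, at percentile 95. PABPC1 had the lowest ratio here too, from 175 to 102 CPM (-0.78, interval -0.98 to -0.59).

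EEF2 went from 1816 to 1255 CPM in OIS cells with GC7 (-0.53, interval -0.59 to -0.47) and EIF4G1 from 803 to 566 CPM (-0.51, interval -0.59 to -0.42). These 2 and PABPC1 were the 3 members lower beyond counting error, where 18% of all features were. EEF1A1 was at 40.1 CPM with DMSO and 37.7 with GC7 (-0.09, interval -0.46 to 0.29), and EEF1D at 92.3 and 98.6 CPM (0.09, interval -0.15 to 0.34). EEF1B2 had 40.1 and 47 CPM (0.23, interval -0.13 to 0.60), and EIF4B 11.6 and 13.8 CPM (0.25, interval -0.43 to 0.97) from 26 and 64 counts. For these 4 members no difference was detectable at this depth.

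**Figure D3:**
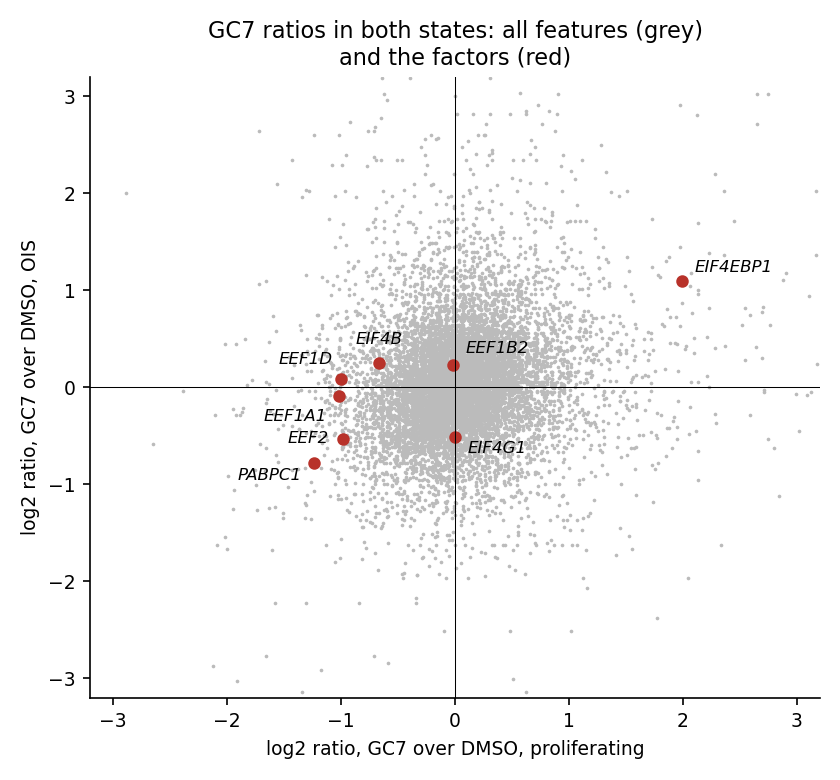
Log2 ratio of GC7 over DMSO in proliferating cells (x axis) against that in OIS cells (y axis), with 1 grey dot per tested nuclear feature and the 8 measured members in red; 64 features lie outside the plotted range. EIF4EBP1 is high on both axes (1.99 and 1.10), PABPC1 is low on both (-1.24 and -0.78), and EEF1A1 and EEF1D are at -1.02 and -1.0 in proliferating but at -0.09 and 0.09 in OIS cells.

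The log2 ratio for GC7 in OIS cells was set against that in proliferating cells by their difference, which leaves no degree of freedom for a test and has an interval from the 4 counts only. The difference was 1.09 for EEF1D (0.79 to 1.39), 0.93 for EEF1A1 (0.51 to 1.34) and 0.92 for EIF4B (0.11 to 1.73). These members were lower with GC7 in proliferating cells and equal within counting error in OIS cells. For PABPC1 the difference was 0.46 (0.21 to 0.71), for EEF2 0.45 (0.36 to 0.53) and for EEF1B2 0.25 (-0.17 to 0.66). EIF4G1 (-0.50, interval -0.63 to -0.38) and EIF4EBP1 (-0.90, interval -1.35 to -0.45) had the lower ratio in OIS cells. The median difference was 0.45, beside -0.01 over all features, whose middle 50% lay between -0.39 and 0.37. No member had ratios beyond counting error in opposite directions in the 2 states. The share of all features with such ratios was not computed, so this does not set the members apart.

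The states were compared in DMSO to describe the machinery in senescence. Relative to the rest of the library, EIF4G1 had more footprints in OIS than in proliferating cells. EEF1A1 and EIF4EBP1 had fewer, and PABPC1 was level. The median log2 ratio was -0.41, beside -0.02 over all features, with members from -1.39 to 1.18. By the 2-fold rule 1 member was higher (14.1% of all features) and 2 were lower (12.6% of all features), so that the background of this comparison was itself large.

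EEF1A1 went from 106 CPM in proliferating to 40.1 CPM in OIS cells in DMSO (488 and 90 counts), a log2 ratio of -1.39 (-1.74 to -1.07). EEF1B2 (58.3 and 40.1 CPM, -0.54, interval -0.90 to -0.19) and EEF1D (121 and 92.3 CPM, -0.39, interval -0.62 to -0.15) were lower by less. EEF2 was higher, with 1176 and 1816 CPM (0.63, interval 0.57 to 0.69). The carrier of aminoacyl-tRNA and the translocase thus lay on opposite sides of 0. EIF4G1 went from 355 to 803 CPM (1.18, interval 1.08 to 1.27) and EIF4EBP1 from 62 to 25.4 CPM (-1.28, interval -1.72 to -0.87). PABPC1 had 172 and 175 CPM (0.02, interval -0.15 to 0.20), and EIF4B 15.8 and 11.6 CPM (-0.44, interval -1.15 to 0.21). With total-count scaling, which moved the median of all features to -0.40 in this comparison, EIF4G1 had 0.79 and was no longer called and PABPC1 had -0.36, while EEF1A1 (-1.78) and EIF4EBP1 (-1.66) were called.

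With GC7 in both states, EEF2 and EIF4EBP1 differed at least 2-fold between the states, in opposite directions. The median log2 ratio of OIS against proliferating cells was 0.48, beside -0.01 over all features. By the 2-fold rule 1 member was higher (12% of all features) and 1 was lower (11.5% of all features). EIF4EBP1 stood at 248 CPM in proliferating and 54.6 CPM in OIS cells, a log2 ratio of -2.18 (-2.38 to -1.99) or 4.53-fold lower. EEF2 had 597 and 1255 CPM (1.07, interval 1.02 to 1.13), EEF1D 60.4 and 98.6 CPM (0.70, interval 0.52 to 0.90) and EIF4G1 355 and 566 CPM (0.67, interval 0.59 to 0.75). EEF1D was thus lower in OIS cells in DMSO and higher in OIS cells with GC7. PABPC1 (72.5 and 102 CPM, 0.48, interval 0.30 to 0.67) was higher in OIS cells, EEF1A1 (52.2 and 37.7 CPM, -0.47, interval -0.73 to -0.21) and EEF1B2 (57.5 and 47 CPM, -0.29, interval -0.53 to -0.05) were lower, and EIF4B (9.84 and 13.8 CPM, 0.48, interval -0.02 to 0.99) was within counting error. EEF2 had 0.85 with total-count scaling and 0.99 with upper quartile scaling or a limit of 1 count, and was then not called.

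**Figure D4:**
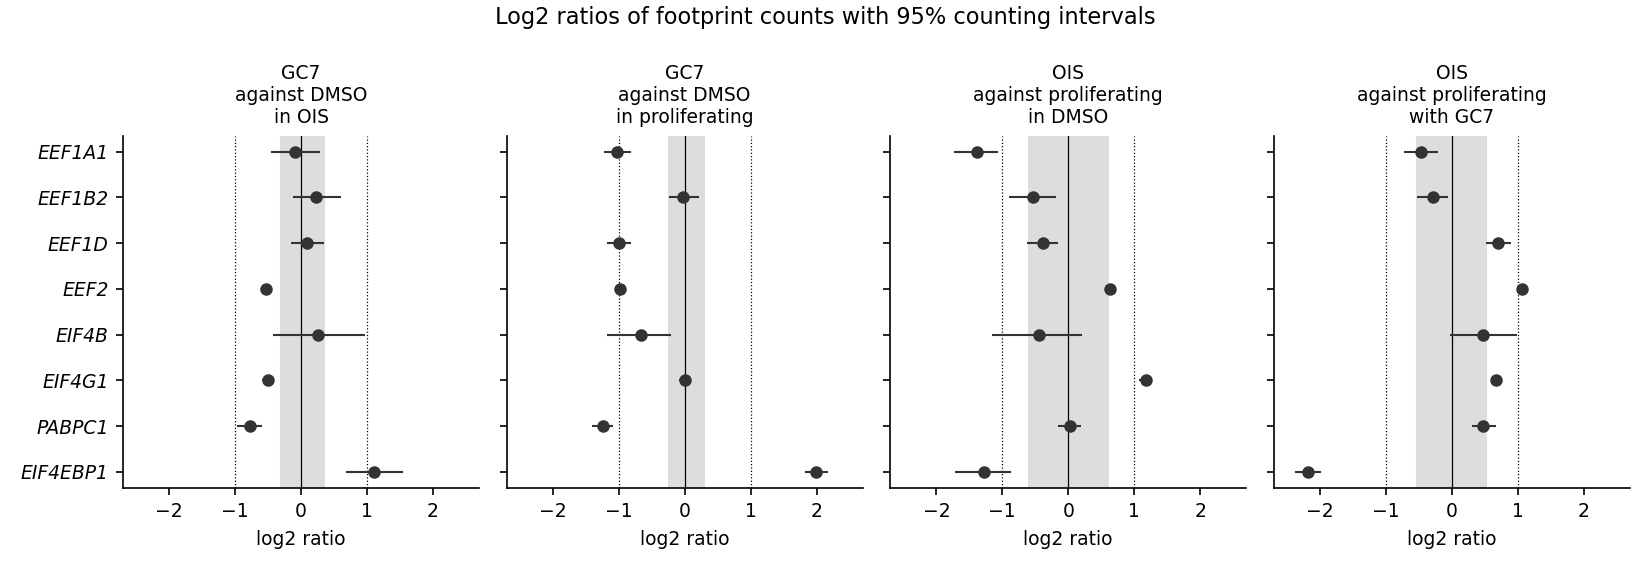
Log2 ratios of scaled footprint counts (x axis) of the 8 measured members in the 4 comparisons, 1 panel each, with 95% counting intervals. The grey band is the middle 50% of all tested features and the dotted lines mark 2-fold; EIF4EBP1 lies beyond 2-fold in all 4 panels, higher with GC7 in both states and lower in OIS cells with either treatment.

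Over all 4 libraries, state and GC7 were tested in an additive model with edgeR's quasi-likelihood test, with 1 residual degree of freedom, in which unequal responses of the states cannot be told apart from the spread of libraries. For state, 2 members were called higher in OIS cells, where 18% of all features were, and 2 lower, where 14.5% of all features were. EIF4G1 (log2 fold change 0.92, edgeR adjusted p = 0.00658) and EEF2 (0.85, edgeR adjusted p = 0.015) were higher in both pairs of libraries. EIF4EBP1 (-1.80, edgeR adjusted p = 0.000134) and EEF1A1 (-0.91, edgeR adjusted p = 0.0111) were lower in both pairs. The call of EEF2 was lost with total-count scaling (0.54, edgeR adjusted p = 0.0961) and without GC7 in the model (0.79, edgeR adjusted p = 0.12), while those of EIF4G1, EIF4EBP1 and EEF1A1 stayed under each alternative run. The adjusted p of EEF1A1 was at most 0.0499, in the Wald test of DESeq2. EEF1B2, EEF1D, EIF4B and PABPC1 had edgeR adjusted p from 0.147 to 0.907, and of these EEF1B2 was called lower with total-count scaling (-0.71, edgeR adjusted p = 0.0234).

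For GC7, 1 member was called higher (0.144% of all features) and 0 lower (0.243% of all features) by the same test. EIF4EBP1 had a log2 fold change of 1.62 (edgeR adjusted p = 0.00852), higher with GC7 in both pairs, and with DESeq2 1.57 (adjusted p = 0.00113). Without state in the model its log2 fold change was 1.78, with an edgeR adjusted p = 1. PABPC1 was lower with GC7 in both pairs but missed the threshold, with a log2 fold change of -1.02 (edgeR adjusted p = 0.0568), and was called only when features of at least 1 count were tested (-0.96, edgeR adjusted p = 0.00254). At an unadjusted p under 0.05, 4 of the 8 members differed by edgeR and 3 by DESeq2, and 1075 of all 11128 features by edgeR and 376 by DESeq2. With 1 library per condition this model does not separate GC7 from any difference in preparation shared by both GC7 libraries.

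Ratios of the counts of a pair of members within 1 library do not depend on scaling. EIF4EBP1 had 0.174 counts per count of EIF4G1, the scaffold whose binding it prevents, in the proliferating DMSO library (0.153 to 0.198, exact) and 0.698 in the proliferating GC7 library (0.657 to 0.742). The same ratio was 0.0316 in OIS DMSO (0.0239 to 0.0412) and 0.0965 in OIS GC7 (0.0844 to 0.11). The order from OIS DMSO up to proliferating GC7 held without overlap of any counting interval. EEF2 had 3.31 counts per count of EIF4G1 in proliferating DMSO (3.13 to 3.5), but 1.68 with GC7 (1.60 to 1.77). In OIS cells it had 2.26 with DMSO (2.14 to 2.39) and 2.22 with GC7 (2.12 to 2.32). PABPC1 had 0.484 counts per count of EIF4G1 in proliferating DMSO (0.444 to 0.527), and 0.205, 0.218 and 0.18 in proliferating GC7, OIS DMSO and OIS GC7. The proliferating DMSO library was thus apart from the other 3 in its footprints on PABPC1 relative to EIF4G1. EIF4G1 itself stood at 355 CPM in both proliferating libraries, 803 in OIS DMSO and 566 in OIS GC7. All 3 ratios thus follow the moves of EIF4G1 too. PABPC1 was at 172 (proliferating) and 175 (OIS) CPM in DMSO, and EEF2 at 1816 (DMSO) and 1255 (GC7) CPM in OIS cells.

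**Figure D5:**
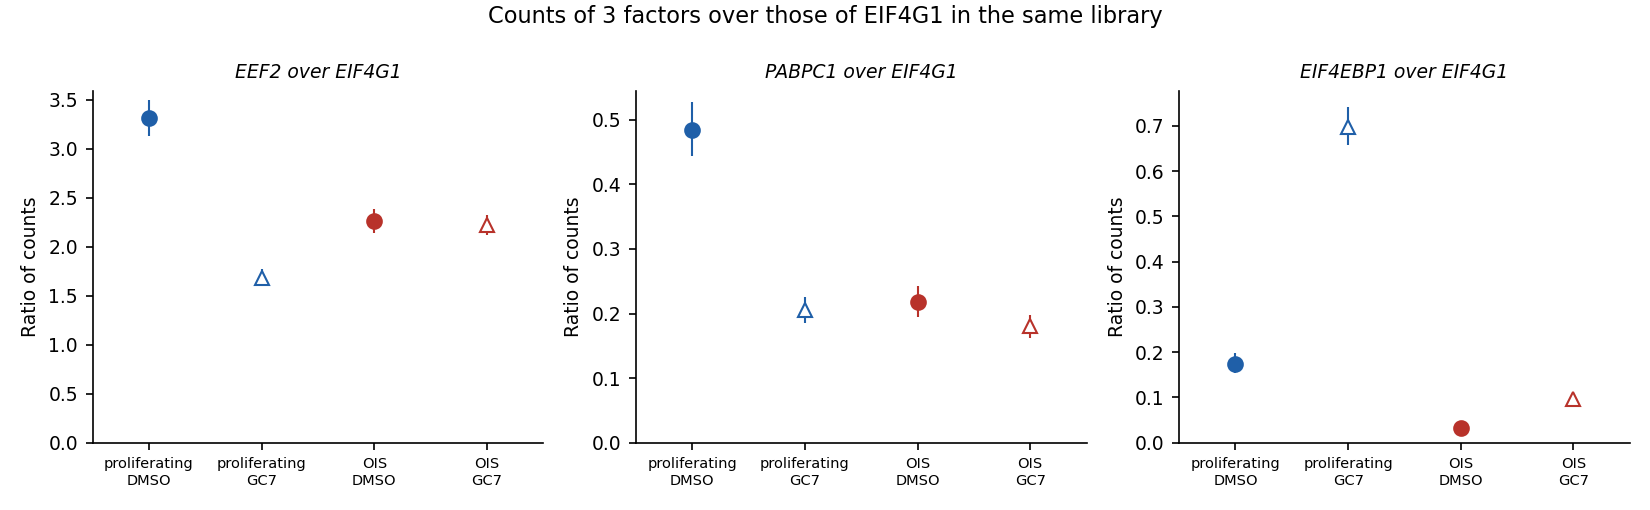
Counts of EEF2, PABPC1 and EIF4EBP1 divided by those of EIF4G1 in the same library (y axes, linear from 0), with exact 95% counting intervals, symbols as in the plot of levels. EIF4EBP1 over EIF4G1 is highest in proliferating GC7 (0.698) and lowest in OIS DMSO (0.0316), and PABPC1 over EIF4G1 is highest in proliferating DMSO (0.484).

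The elongation factors shifted against each other as well. EEF1A1 had 0.09 counts per count of EEF2 in proliferating DMSO (0.0819 to 0.0987) and 0.0874 in proliferating GC7 (0.0785 to 0.0971), which overlap. In OIS cells it had 0.0221 (0.0177 to 0.0272) with DMSO and 0.0301 (0.0257 to 0.035) with GC7, below both proliferating libraries. EEF1B2 had 0.952 counts per count of its partner EEF1D in proliferating GC7 (0.831 to 1.09), against 0.483, 0.435 and 0.477 in proliferating DMSO, OIS DMSO and OIS GC7, whose intervals overlapped.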

How the data were processed

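Ribosome footprints of 4 libraries were analysed from whole-number counts per gene that the authors deposited, without normalization. Per the submitters' processing notes and the file headers, reads were aligned to hg19 with STAR (version 2.5.3a) and counted with featureCounts (version 1.5.1) on GENCODE 19. Library linkers carried molecular identifiers per the methods, and whether duplicates were removed with them before counting is not stated there. The members and lists were chosen with earlier results of these data known. Nuclear features with at least 40 counts over the 4 libraries were kept (11128) and scaled by TMM (edgeR version 4.0.16, R version 4.3.3). Log2 ratios used a prior count of 1 and exact conditional binomial 95% counting intervals. State and GC7 were tested with edgeR's quasi-likelihood test and Benjamini-Hochberg adjustment over all 11128 features. DESeq2 (version 1.42.0), other scalings, count limits and prior counts were alternatives. Procedures were tested on simulated counts. Shared exonic bases were computed in Python (version 3.11.15) from the exon coordinates in the tables, ignoring strand. The RefSeq table holds no Ensembl numbers, so the 15 gene lists for partner factors, ribosomal proteins and markers could not be matched and have no result. All 10 members were to be named in every comparison, beside the nearest features. Each member lies on the chromosome RefSeq gives for its symbol.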

Additional observations from a re-analysis of the deposited data

How the results depend on the processing

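No paired analysis was possible because each condition has 1 library without a replicate number, and for the same reason no library was left out in turn. Under the scalings, count limits and prior counts run, the median of the members ranged from -0.07 to 0.19 for GC7 in OIS cells, from -0.94 to -0.75 for GC7 in proliferating cells, from -0.80 to -0.40 between the states in DMSO and from 0.26 to 0.49 with GC7. Members at least 2-fold lower with GC7 in proliferating cells numbered 1 in place of 2 under total-count or upper quartile scaling and under count limits of 400 or 1, but 3 with DESeq2 size factors, where EEF1D (-1.01) was added, and 5 under a 1.5-fold limit. With GC7 in OIS cells, 1 was lower with a 1.5-fold limit. Members higher in OIS cells in DMSO numbered 0 with total-count scaling and 2 with a 1.5-fold limit. With GC7 they numbered 0 with total-count scaling, upper quartile scaling and a limit of 1 count, against 3 under a 1.5-fold limit. In the additive model, members higher by state numbered 1 with total-count scaling and 1 without GC7, members lower by GC7 numbered 1 with at least 1 count, and members higher by GC7 numbered 0 without state, where edgeR called 0 of all features and 56 had an unadjusted p under 0.05. The cause of these moves was not tested. Features called lower with GC7 numbered 27, against 8 under a limit of 400 counts, 79 under a limit of 1 and 29 with DESeq2, and those called higher 16, against 9, 111 and 11, and 30 with total-count scaling. Those called by state with DESeq2 numbered 1339 higher and 789 lower, in place of 2001 and 1609, and 1255 and 2797 with total-count scaling. The all-feature median under total-count scaling was 0.19 (OIS cells, GC7), -0.40 (states, DMSO) and -0.24 (states, GC7). No called value changed sign. Of the values not called, total-count scaling turned EEF1A1 for GC7 in OIS cells (-0.09 to 0.10), PABPC1 between the states in DMSO (0.02 to -0.36) and, in the additive model for state, EEF1D (0.17 to -0.13), EIF4B (0.06 to -0.24) and PABPC1 (0.25 to -0.05). PABPC1 in DMSO was also below 0 with upper quartile scaling (-0.09) and count limits of 400 (-0.02) and 1 (-0.01), where EEF1B2 for GC7 in proliferating cells turned from -0.02 to 0.01 and 0.06. Scaling without the members was chosen after seeing the data, in place of one also without ribosomal proteins, which could not be matched, and changed no call. Levels per coding length and counts with pseudogenes added were not run, because no protein table was used and the pseudogenes could not be matched. EIF4B, with 26 to 73 counts per library, is the member that depth limits most. The limit of 400 counts left it out, so medians under that limit are of 7 members. They include the lowest given above, -0.07 and -0.94 for GC7 in OIS and proliferating cells.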

Other observations

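The median of the 8 members' scaled log2 levels, centred over the 4 libraries, was 0.31 (DMSO) and -0.37 (GC7) in proliferating cells, and 0.00 (DMSO) and 0.06 (GC7) in OIS cells. Of 3443 other features with at least 1000 counts, the nearest to this profile over the 4 libraries was ENSG00000147677, at a Euclidean distance of 0.0931 on the log2 scale, followed by ENSG00000214517 at 0.109. ENSG00000147677 had 1164, 1255, 478 and 1055 counts in the order of the libraries above. The tables do not pair these numbers with names.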
